A study of Mus musculus with 14 samples.

Results

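The genes described here are 47 regulators and machines of the mammalian cell cycle and of DNA replication, followed through 7 groups of sorted mouse blood and immune cells. They are a list of symbols chosen for their known roles, with earlier results of these data known: the D, E, A and B cyclins with their kinases, 4 CDK inhibitors, 3 E2F factors, the genes that license and fire replication origins, the suppliers of deoxynucleotides, and the kinases, checkpoint proteins and motors of mitosis. All 47 had a probe on the arrays, among 20284 genes with a named probe, and 46 of the 47 were measured well above background on at least 1 array. Ccne2, a cyclin of S phase entry, was not well above background on any array and is not described further.

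RNA of cells sorted from C57BL/6 mice was amplified, labelled and hybridised to single-colour Agilent arrays, with 2 arrays in each group. Granulocyte-monocyte progenitors (GMP), lineage-negative CD117+ CD16/32+ bone marrow cells that give rise to neutrophils and monocytes, came from mice labelled IRF8KO and from wild-type mice. The other 5 groups were wild type. Of these, common dendritic cell progenitors (CDP, CD115+ CD135+) and precursors of classical dendritic cells (pre-cDC, CD11c+ MHC-II- CD172a+) came from bone marrow, while 2 kinds of mature classical dendritic cell (cDC), CD8+ and CD4+, were taken from the spleen, and neutrophils (Neu, CD11b+ Ly6G hi) again from bone marrow. IRF8 is a transcription factor needed for dendritic cells and monocytes, and mice that lack it accumulate neutrophils. The labels do not say which part of the gene was removed, how old the mice were, or whether the 2 arrays of a group came from different mice, so a p-value here reflects the spread between arrays, which may be technical. In bulk RNA of sorted cells, fewer dividing cells and less RNA of a cycle gene in each cell cannot be told apart.

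A cell leaves G1 when D cyclins with CDK4 or CDK6, and then cyclin E with CDK2, phosphorylate the retinoblastoma protein and free the E2F factors, which switch on the genes of DNA synthesis. CDK inhibitors brake this step: the INK4 proteins (here Cdkn2c and Cdkn2d) bind CDK4 and CDK6, and the CIP/KIP proteins (Cdkn1a and Cdkn1b) bind cyclin-CDK complexes more widely. Later, A and B cyclins with CDK1 drive the cell through G2 into mitosis, and their genes are switched on by a separate late programme. Blood progenitors divide quickly, whereas mature neutrophils are post-mitotic and splenic dendritic cells divide slowly.

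A level is the log2 signal of a gene's brightest probe minus the log2 of the 75th percentile of its array, so 0 means as bright as that percentile and 1 unit is a doubling. Levels of different genes come from different probes and are not set against each other. The 75th percentile was 509 to 582 signal units on the 4 GMP arrays, 88.8 and 89.2 on CDP arrays, 182 and 164 on pre-cDC arrays, 234 and 315 on CD8+ cDC arrays, and 162 and 148 on Neu arrays, and 39.4% to 53.7% of probes were well above background on these 12 arrays. Both GMP groups shared a slide, and CD8+ cDC and Neu shared another. CDP, pre-cDC and CD4+ cDC each had a slide of its own, so for comparisons that cross slides, slide and group cannot be told apart. CD4+ cDC were hybridised to a smaller array design with 39429 probes, against 55681 on the other arrays, and enter no test.

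The labelled cell types were set against lists of defining genes. All 9 mature neutrophil genes were well above background on both Neu arrays, with a summed log2 level of 13.3 to 13.4, against at most 5.63 on any other array. All 13 dendritic cell genes were above background on both CD8+ cDC arrays and 11 of 13 on both CD4+ cDC arrays. This count alone does not separate the groups, since 9 to 10 were above background on Neu arrays and 10 on CDP arrays. Their summed level was 10.9 to 11.1 on CD8+ cDC arrays, against 8.05 to 8.06 in pre-cDC and 6.71 to 6.74 in Neu. On both CD4+ cDC arrays all 9 mature neutrophil genes were also above background, with a summed level of 4.70 to 5.09 on the percentile of that design. All 13 erythroid and megakaryocyte genes were above background there too. These arrays had 61.4% and 59.7% of their probes well above background, more than any array of the larger design, so such counts are not comparable between the designs. The probe of Irf8 itself read higher in the IRF8KO-labelled GMP, at 6.03 and 5.98, against 4.61 and 4.70 on WT GMP arrays (log2 difference 1.35 ± 0.07 SE, limma adjusted p = 1.6e-05). Where in the gene this probe lies was not analysed here, so its level is no check of the deletion, and the arrays are called by their label.

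Across the wild-type groups the members were high in the 3 progenitor and precursor stages and low in the mature cells. The median level over the 47 members was 3.38 and 3.39 on the 2 WT GMP arrays, 4.47 and 4.56 on CDP arrays, 4.14 and 4.07 on pre-cDC arrays, 2.27 and 2.25 on CD8+ cDC arrays, and 0.55 and 0.67 on Neu arrays. The arrays labelled IRF8KO GMP had medians of 2.94 and 2.87. Within a group the 2 arrays lay close together: the median gap between them over the 46 measured members was 0.04 in WT GMP and 0.08 in Neu, and the largest was 1.29, for Cdc25c in Neu, where it was not above background. The test pools the spread of a gene over all 12 arrays of the larger design. A wide gap in Neu therefore widens the SE of that gene in every comparison, as for Cdc25c, Cdc6 and Ccnd1.

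Neu held the lowest mean of 35 of the 46 measured members, and CDP the highest mean of 26, pre-cDC of 10, WT GMP of 5, Neu of 4 and IRF8KO GMP of 1. The 4 members highest in Neu were Ccnd3, Cdkn1b, Cdkn2d and E2f2. Highest and lowest groups were not counted over all genes, so these counts do not set the members apart. Of all genes tested, 51.2% were higher in CDP than in WT GMP, and 58.8% were lower in pre-cDC than in CDP. How the highest means divide between CDP, pre-cDC and WT GMP depends on the scaling. With every array set to the mean of 10 reference genes, CDP held 13, pre-cDC 13 and WT GMP 14 of them, and after quantile normalization 17, 14 and 10. The low place of Neu did not depend on it, at 36 and 35 members.

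**Figure D1:**
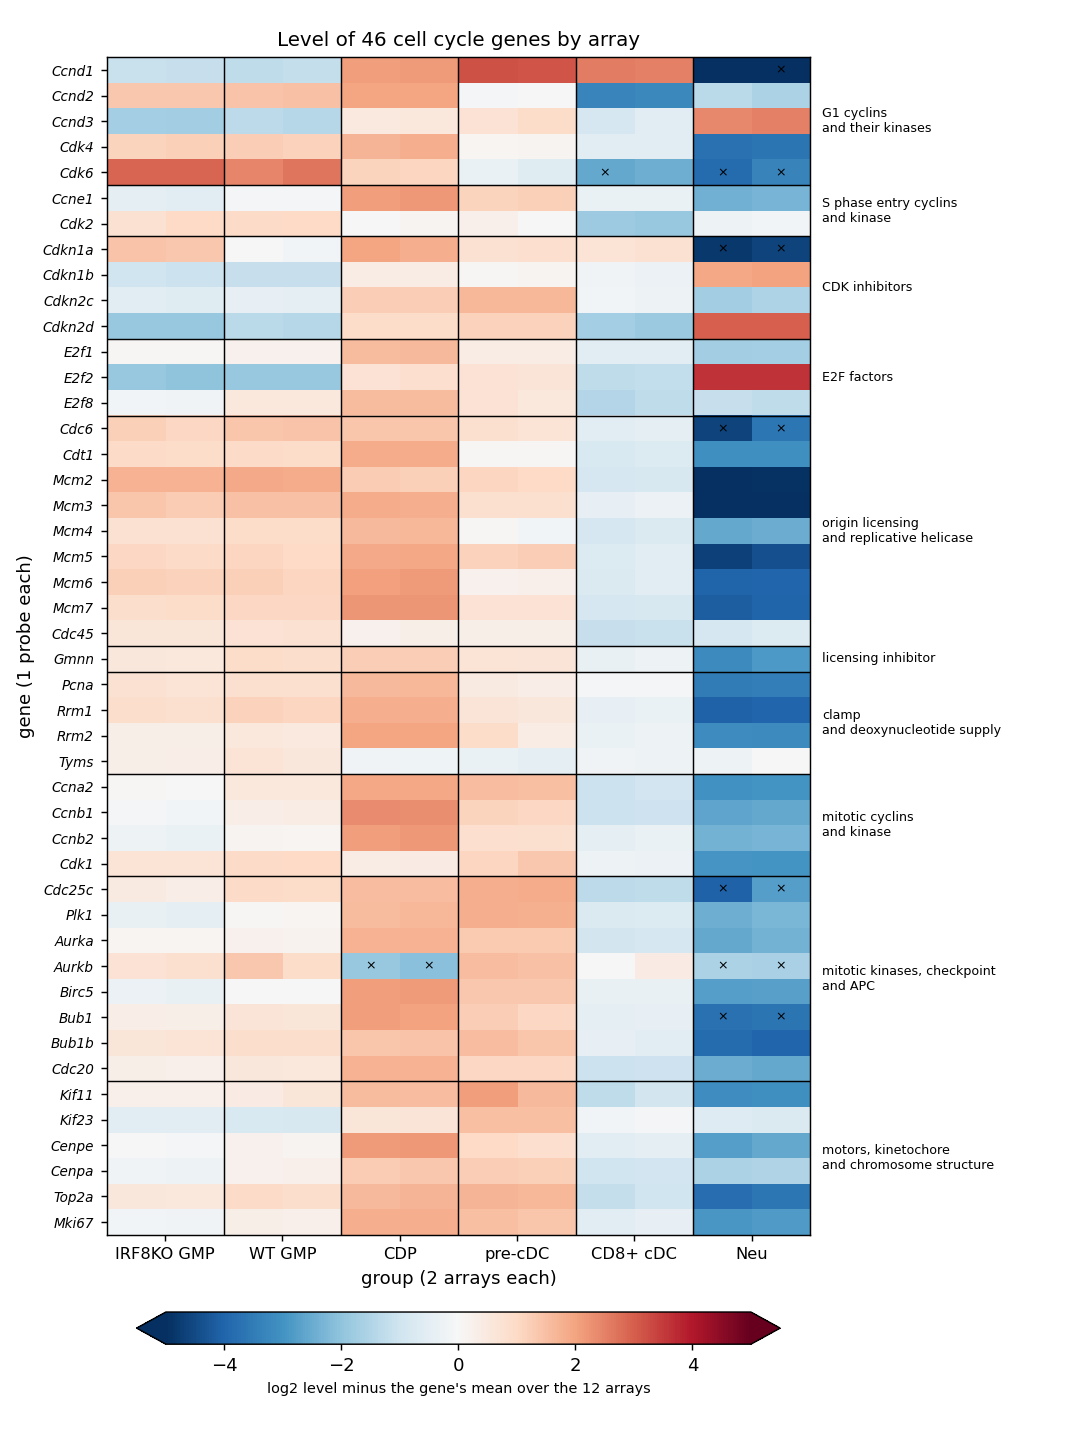
Log2 level of each of the 46 measured members (rows, ordered by role) on the 12 arrays of the larger design (columns, 2 per group), drawn as the difference from that gene's mean over the 12 arrays. Crosses mark arrays where the probe was not well above background; most rows are red in CDP and pre-cDC and blue in Neu, whereas Ccnd3, Cdkn1b, Cdkn2d and E2f2 are red in Neu.

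The early (G1/S) and late (G2/M) members differ in the letters around their start sites. Promoter windows of 300 bases, 250 before and 50 after each RefSeq start (GRCm38.p6), were found for 39 of the 47 members. They were searched on both strands for E2F-like letters (TTCCCGC or TTCGCGC, as well as TTGCCGC or TTGGCGC), for the cell cycle genes homology region or CHR (TTTGAA and TTCGAA) and for CCAAT. E2F-like letters stood in 11 of 17 genes of the G1/S group (64.7%) and 3 of 15 of the G2/M group (20.0%), against 10.9% of all 27025 genes in the RefSeq table. CHR letters showed the opposite split, in 5 of 17 G1/S genes (29.4%) and 12 of 15 G2/M genes (80.0%), against 21.7% of all genes. CCAAT stood in 70.6% of the G1/S genes and 93.3% of the G2/M genes, against 41.1% of all genes, and an E2F-like match overlapped a CCAAT match in 3 members. These are matches of letters and not shown to be sites.

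The windows of 5 genes are printed, chosen to show both programmes: Mcm6 and Mcm5 of the replicative helicase, Ccnb2 and Top2a of the G2/M group, and E2f2 (the first of its 2 windows), which ran against most other members in neutrophils. Each runs 5′ to 3′ on the strand of its gene, and capitals mark every E2F-like, CHR or CCAAT match on either strand. In Mcm6 and Mcm5 the matches are E2F-like letters and CCAAT, with no CHR. In Ccnb2 and Top2a they are CHR letters and CCAAT, with no E2F-like letters, and in E2f2 1 E2F-like match and 1 CCAAT.
Mcm6 (chr1:128359656-128359955, - strand): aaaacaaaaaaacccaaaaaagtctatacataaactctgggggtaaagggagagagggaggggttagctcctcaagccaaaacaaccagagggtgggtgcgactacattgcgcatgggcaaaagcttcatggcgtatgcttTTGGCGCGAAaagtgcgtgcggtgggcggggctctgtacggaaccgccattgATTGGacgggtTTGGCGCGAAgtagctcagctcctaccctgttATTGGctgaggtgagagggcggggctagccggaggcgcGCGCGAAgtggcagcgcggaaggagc
Mcm5 (chr8:75109259-75109558, + strand): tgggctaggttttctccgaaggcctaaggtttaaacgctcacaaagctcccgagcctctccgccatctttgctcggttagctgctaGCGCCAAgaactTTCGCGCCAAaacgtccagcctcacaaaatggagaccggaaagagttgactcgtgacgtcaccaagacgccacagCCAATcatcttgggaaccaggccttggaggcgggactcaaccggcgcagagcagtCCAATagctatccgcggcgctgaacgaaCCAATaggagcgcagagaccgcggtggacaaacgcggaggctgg
Ccnb2 (chr9:70421505-70421804, - strand): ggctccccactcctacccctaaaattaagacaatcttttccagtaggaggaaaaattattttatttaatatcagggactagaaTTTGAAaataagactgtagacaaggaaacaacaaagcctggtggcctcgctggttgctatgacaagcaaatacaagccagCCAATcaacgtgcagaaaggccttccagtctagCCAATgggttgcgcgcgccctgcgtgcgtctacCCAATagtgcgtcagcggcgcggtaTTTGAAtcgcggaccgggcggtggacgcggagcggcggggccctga
Top2a (chr11:99024140-99024439, - strand): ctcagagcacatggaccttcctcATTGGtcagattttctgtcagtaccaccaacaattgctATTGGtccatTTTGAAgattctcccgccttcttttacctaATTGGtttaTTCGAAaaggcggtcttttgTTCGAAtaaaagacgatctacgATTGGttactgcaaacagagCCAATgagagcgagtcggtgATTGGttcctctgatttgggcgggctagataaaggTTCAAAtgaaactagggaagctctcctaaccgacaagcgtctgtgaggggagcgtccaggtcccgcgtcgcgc
E2f2 (chr4:136172024-136172323, + strand): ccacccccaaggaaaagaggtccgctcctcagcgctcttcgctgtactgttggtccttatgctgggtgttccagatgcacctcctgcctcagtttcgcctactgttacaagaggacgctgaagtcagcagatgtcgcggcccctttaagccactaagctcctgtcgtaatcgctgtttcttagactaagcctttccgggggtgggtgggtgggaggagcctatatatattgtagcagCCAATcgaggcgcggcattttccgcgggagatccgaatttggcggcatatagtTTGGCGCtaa

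The first comparison asked whether cycle genes differ between GMP labelled IRF8KO and WT GMP of the same gate, hybridised on the same slide. Mitotic genes were slightly lower on the arrays labelled IRF8KO, the genes of origin licensing mostly did not pass the test, and 1 brake of the cycle, Cdkn1a, was clearly higher. The difference between mitotic and licensing genes was not tested, and 7 of the 9 licensing and helicase genes also had negative differences (median -0.14). Of 46 members tested, 19 were lower and 2 higher at an adjusted p under 0.05 (limma, Benjamini-Hochberg over 12156 genes), that is 41.3% and 4.35%, against 10.5% and 15.2% of all genes tested (25.7% were called either way). Changes were small: the median over members was -0.21 on the log2 scale, against 0.03 for all genes tested. On 35 of the 46 members both arrays labelled IRF8KO lay below both WT arrays, on 5 above, and on 6 the groups overlapped. No such count was made over all genes, so these numbers do not set the members apart.

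All 4 mitotic cyclin and kinase genes were lower on the arrays labelled IRF8KO. Ccna2, the cyclin of S phase and G2, was at 3.52 and 3.46 in IRF8KO GMP, against 3.97 and 3.99 in WT GMP, a log2 difference of -0.49 ± 0.05 (SE, adjusted p = 0.00055). Ccnb1, the main cyclin of mitotic entry, was at 2.94 and 2.87, against 3.34 and 3.39 in WT GMP, a difference of -0.46 ± 0.06 (SE, adjusted p = 0.00096). The arrays of the 2 groups did not overlap for either cyclin, and Ccnb2 differed by -0.41 ± 0.06 (SE, adjusted p = 0.0017). Cdk1, their kinase, differed by -0.29 ± 0.08 (SE, adjusted p = 0.033) on its brightest probe, and the dimmest of its 3 probes went the other way: it was above background on both arrays labelled IRF8KO and on neither WT GMP array, which leaves its difference without a measured size.

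Of the other 14 G2/M members, 7 were lower and 1 higher. Plk1, the kinase of mitotic entry and spindle assembly, was at 3.92 and 3.80 in IRF8KO GMP, against 4.33 and 4.36 in WT GMP (difference -0.48 ± 0.07 SE, adjusted p = 0.0024). Cenpa, the centromeric histone, was at 3.04 and 2.96, against 3.45 and 3.48 in WT GMP (-0.47 ± 0.06 SE, adjusted p = 0.00086). Both genes lay lower on each array labelled IRF8KO than on each WT array. The proliferation antigen Mki67 differed by -0.43 ± 0.07 (SE, adjusted p = 0.0027), the topoisomerase Top2a by -0.40 ± 0.09 (SE, adjusted p = 0.017), the checkpoint kinase Bub1 by -0.33 ± 0.07 (SE, adjusted p = 0.015), the survivin gene Birc5 by -0.32 ± 0.05 (SE, adjusted p = 0.0020) and the APC activator Cdc20 by -0.27 ± 0.05 (SE, adjusted p = 0.0046). Kif23, a kinesin of the midbody in cytokinesis, ran against its class, at 1.53 and 1.5, against 1.28 and 1.23 in WT GMP (0.26 ± 0.05 SE, adjusted p = 0.011). The largest difference that missed the threshold was that of Cdc25c, the phosphatase that activates CDK1 (-0.57 ± 0.34 SE, adjusted p = 0.27). This SE is not that of the GMP arrays alone: it holds the gap of 1.29 between the 2 Neu arrays.

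Of 18 tested genes of G1/S, 6 were lower and none higher (median -0.14). E2f8, a repressor among the E2F factors, had the largest fall of any member that passed, at 2.70 and 2.66 in IRF8KO GMP, against 3.38 and 3.39 in WT GMP (-0.71 ± 0.09 SE, adjusted p = 0.00091). Ccne1, the cyclin of S phase entry, was at 1.69 and 1.64, against 2.13 and 2.13 in WT GMP (-0.47 ± 0.06 SE, adjusted p = 0.00083). E2f1, an activator of S phase genes, differed by -0.15 ± 0.04 (SE, adjusted p = 0.046), and E2f2 did not pass (-0.05 ± 0.06 SE, adjusted p = 0.61). Of 9 licensing and helicase genes, Mcm7 alone passed (-0.17 ± 0.05 SE, adjusted p = 0.039), and the other 8 had differences between -0.29 and 0.03. Rrm1, a subunit of ribonucleotide reductase, differed by -0.27 ± 0.06 (SE, adjusted p = 0.013) and Tyms, the thymidylate synthase, by -0.33 ± 0.09 (SE, adjusted p = 0.038), whereas Pcna, the replication clamp, and Rrm2 did not pass. Gmnn, the geminin that blocks relicensing of origins, differed by -0.35 ± 0.10 (SE, adjusted p = 0.033).

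None of the 5 D cyclin and kinase genes passed the test in this comparison: their differences ran between -0.33 for Ccnd3 and 0.38 for Cdk6. The brakes went in both directions. Cdkn1a, the CIP/KIP inhibitor best known as a target of p53, was at 1.28 and 1.20 in IRF8KO GMP, against -0.17 and -0.28 in WT GMP, a difference of 1.47 ± 0.09 (SE, adjusted p = 2.8e-05) and the largest of any member. Cdkn2d, an INK4 inhibitor, was at 2.26 and 2.26, against 2.79 and 2.70 in WT GMP (-0.48 ± 0.06 SE, adjusted p = 0.0010). The remaining inhibitors, Cdkn1b (0.11 ± 0.06 SE, adjusted p = 0.25) and Cdkn2c (-0.16 ± 0.08 SE, adjusted p = 0.17), did not pass. A second Cdkn1a probe was not above background on any array.

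**Figure D2:**
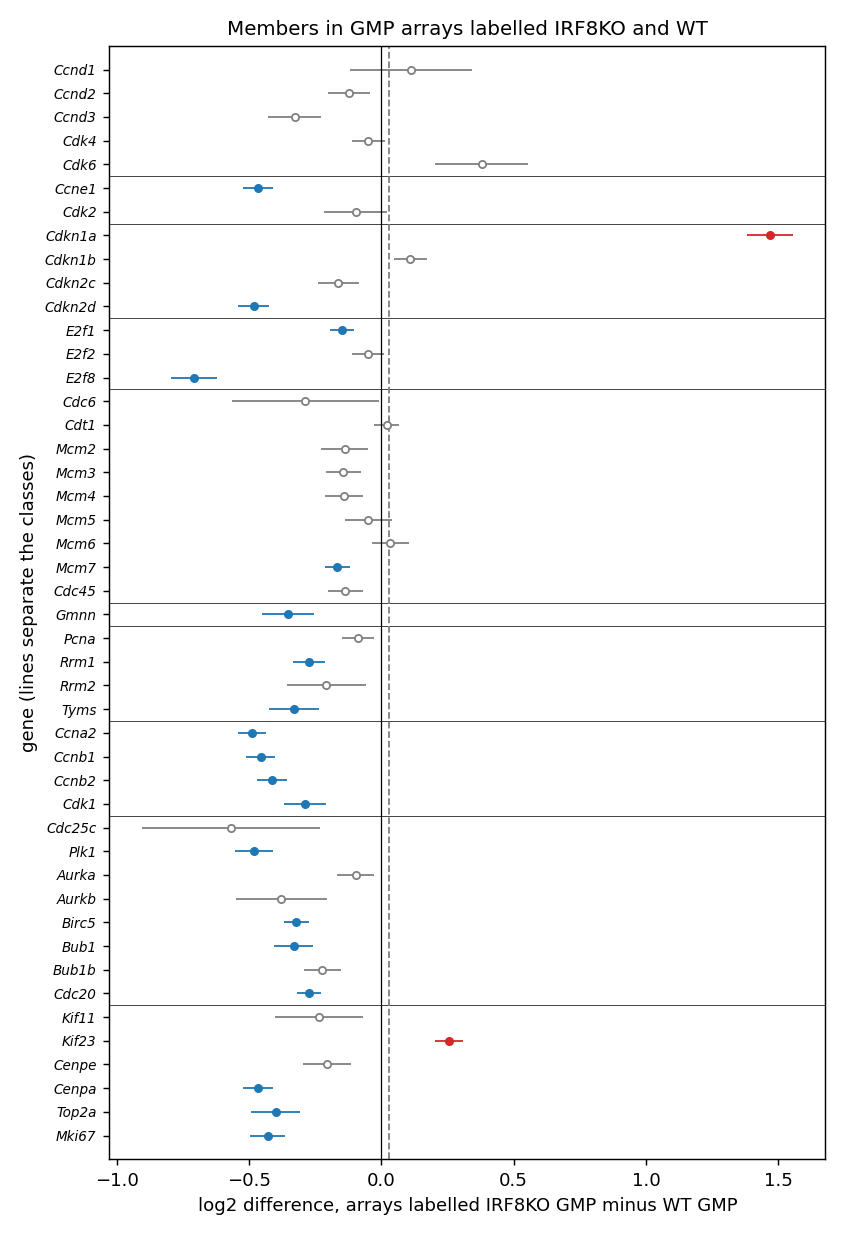
Log2 difference of each measured member, arrays labelled IRF8KO GMP minus WT GMP arrays (points, with the limma standard error as bars; 2 arrays per group), with genes from top to bottom in order of role. Filled points passed the adjusted p of 0.05, red higher and blue lower in IRF8KO GMP, open points did not; the dashed line is the median of all genes tested (0.03), and Cdkn1a at 1.47 stands farthest from it.

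Lists of 109 other cycle genes on the arrays gave a like split, with values for each list given here in place of a test. Of 45 other mitosis genes 34 were lower and none higher (median -0.35). Of 38 other replication genes 9 were lower and 2 higher (-0.17), and of 24 other G1 genes tested 3 were lower and 2 higher (0.00). The largest falls were those of Knl1, a kinetochore scaffold (-1.0, adjusted p = 0.013), and Cdkn1c, a CIP/KIP inhibitor above background on 1 of 2 arrays labelled IRF8KO (-0.99, adjusted p = 0.036), and the largest rises those of the antiproliferative genes Btg1 (0.65, adjusted p = 0.00032) and Btg2 (0.48, adjusted p = 0.0049). Markers of other lineages moved with the same comparison. Of 11 tested erythroid and megakaryocyte genes 10 were lower (median -2.70; summed level 5.27 to 5.30 on arrays labelled IRF8KO, against 7.41 to 7.43 in WT GMP), and all 8 basophil and mast cell genes were lower (-2.0; 5.90 to 5.94, against 7.19 to 7.21). Of 8 tested mature neutrophil genes 6 were higher (2.03; 5.11 to 5.20, against 3.24 to 3.26), and of 7 monocyte genes 6 were higher (1.10). The part of these shifts in the cycle genes was not tested. The count of 21 members called fell to 2, Cdkn1a and E2f8, when every array was scaled to its median, and was 13 without either replicate of either group in turn. Bub1, Cdk1, E2f1, Gmnn, Mcm7, Top2a and Tyms lost their calls whichever of the 4 arrays was left out.

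The second comparison set CDP, progenitors committed to the dendritic lineage, against WT GMP. Most members were higher in CDP, with a median change of 1.42 in the G2/M group and 0.85 in the G1/S group (their difference was not tested), and so were all 3 D cyclins and all 4 CDK inhibitors, although Ccnd2 was not under every scaling. Of 46 members 37 were higher and 7 lower, that is 80.4% and 15.2%, against 51.2% and 26.9% of all 11899 genes tested (78.1% were called either way). The median change of the members was 1.06, against 0.29 for all genes. Much of this size depends on how arrays on different slides are scaled: the reference genes were themselves higher in CDP (9 of 10, median 0.78), and the split was 23 higher and 14 lower when arrays were set to their mean, 27 and 9 after quantile normalization, and 32 and 7 with the percentile taken over probes detected on all 12 arrays. The median member lay 0.77 above that of all genes tested, 0.51 after quantile normalization and 0.42 with normexp background correction; scalings that shift a whole array cannot change this distance. The direction and the call held under every alternative for 28 of the 44 called members, 23 higher and 5 lower.

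Among the G1 regulators, Ccnd1, a D cyclin induced by growth factor signals, was at 4.41 and 4.45 in CDP, against 1.04 and 1.12 in WT GMP, a log2 difference of 3.35 ± 0.23 (SE, adjusted p = 4.1e-06) and the largest rise of any member. Ccnd3, the D cyclin common in blood cells, was at 7.03 and 7.08, against 5.22 and 5.12 in WT GMP (1.88 ± 0.10 SE, adjusted p = 1.1e-06). Both D cyclins were well clear of the spread between arrays and kept the call under all alternatives. Ccnd2 (0.52 ± 0.08 SE, adjusted p = 0.00047) and Cdk4 (0.55 ± 0.06 SE, adjusted p = 8.5e-05) were also higher but turned lower after quantile normalization and reference gene scaling. Cdk6, the second partner kinase of D cyclins, went against its class, at -0.02 and -0.09 in CDP, against 1.28 and 1.52 in WT GMP (-1.45 ± 0.18 SE, adjusted p = 0.00012).

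All 4 inhibitors were higher in CDP under every alternative. Cdkn2d was at 5.06 and 5.05 in CDP, against 2.79 and 2.70 in WT GMP (2.31 ± 0.06 SE, adjusted p = 3.7e-08), and Cdkn1a was at 1.84 and 1.68, against -0.17 and -0.28 (1.99 ± 0.09 SE, adjusted p = 3.7e-07). Cdkn2c was at 2.35 and 2.32, against 0.68 and 0.64 in WT GMP (1.68 ± 0.08 SE, adjusted p = 4.7e-07), and Cdkn1b was at 3.57 and 3.58, against 2.07 and 2.06 (1.51 ± 0.06 SE, adjusted p = 3.0e-07). Among the factors they restrain, E2f2 changed most, at 4.45 and 4.56, against 1.83 and 1.80 in WT GMP (2.69 ± 0.06 SE, adjusted p = 2.3e-08). E2f1 followed (1.39 ± 0.04 SE, adjusted p = 9.1e-08), as did E2f8 (1.05 ± 0.09 SE, adjusted p = 1.2e-05), whose call was lost with reference gene scaling. Ccne1 was at 4.26 and 4.36, against 2.13 and 2.13 in WT GMP (2.18 ± 0.06 SE, adjusted p = 3.5e-08), and its second, dimmer probe gave 0.52. Cdk2, the partner of cyclin E, was lower, at 0.81 and 0.96, against 1.79 and 1.80 (-0.91 ± 0.12 SE, adjusted p = 0.00017).

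The replication genes were divided. Mcm7, a subunit of the MCM helicase, was at 7.35 and 7.33 in CDP, against 6.18 and 6.18 in WT GMP (1.16 ± 0.05 SE, adjusted p = 2.8e-07), and kept its call under all alternatives. Mcm3, Mcm4, Mcm5, Mcm6 and Cdt1 were also higher, by 0.38 to 0.95, but Mcm3, Mcm4 and Mcm6 turned lower after quantile normalization and Mcm3, Mcm4 and Mcm5 with reference gene scaling. Mcm2 ran against them, at 3.92 and 3.85, against 4.56 and 4.53 in WT GMP (-0.66 ± 0.09 SE, adjusted p = 0.00021), as did Cdc45, a helicase cofactor (-0.47 ± 0.07 SE, adjusted p = 0.00027). Cdc6, the ATPase that loads MCM rings, did not pass (-0.01 ± 0.28 SE, adjusted p = 0.97), and its second probe gave 0.68. Rrm2, the cell cycle-regulated subunit of ribonucleotide reductase, was at 5.86 and 5.84, against 4.40 and 4.35 in WT GMP (1.47 ± 0.15 SE, adjusted p = 4.3e-05). Pcna (0.84 ± 0.06 SE, adjusted p = 6.2e-06), Rrm1 (0.71 ± 0.06 SE, adjusted p = 1.3e-05) and Gmnn (0.33 ± 0.10 SE, adjusted p = 0.014) were higher by less, and each turned lower with reference gene scaling. Tyms was lower (-0.82 ± 0.09 SE, adjusted p = 8.8e-05), but 0.01 with normexp background correction.

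Of 18 mitotic members 15 were higher, 2 lower, and Cdc25c did not pass (0.61 ± 0.34 SE, adjusted p = 0.13). Birc5, the survivin gene of the chromosomal passenger complex, was at 7.42 and 7.45 in CDP, against 5.30 and 5.30 in WT GMP (2.13 ± 0.05 SE, adjusted p = 1.6e-08). Ccnb2 was at 6.51 and 6.56, against 4.54 and 4.50 (2.02 ± 0.06 SE, adjusted p = 5.1e-08), Ccnb1 differed by 2.0 ± 0.06 (SE, adjusted p = 5.1e-08) and Ccna2 by 1.41 ± 0.05 (SE, adjusted p = 2.0e-07). Cenpe, a kinetochore motor, was at 5.60 and 5.62, against 3.65 and 3.58 in WT GMP (1.99 ± 0.09 SE, adjusted p = 4.8e-07). All 6 motor, kinetochore and chromosome genes were higher, although Top2a (0.72 ± 0.09 SE, adjusted p = 0.00015) turned lower with reference gene scaling. Mki67 (1.54 ± 0.07 SE, adjusted p = 3.3e-07), Plk1 (1.55 ± 0.07 SE, adjusted p = 4.9e-07) and Aurka, the centrosomal kinase (1.53 ± 0.07 SE, adjusted p = 4.6e-07), completed the group of larger rises.

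The exceptions were Cdk1 and Aurkb. Cdk1 was at 1.86 and 1.91 in CDP, against 2.45 and 2.49 in WT GMP (-0.58 ± 0.08 SE, adjusted p = 0.00023). Of its dimmer probes, the second was not above background on either CDP array but was on both WT GMP arrays, and the third was above background on 1 of 2 CDP arrays and on neither WT GMP array, so these went opposite ways. Aurkb, the passenger complex kinase, was not well above background on either CDP array, at -4.81 and -5.02, against -1.56 and -2.01 in WT GMP, so that only a bound can be given: at least 2.6-fold lower (adjusted p = 1.2e-06). Such a bound sets the mean of the brighter group against the lowest signal that counted as well above background on the dimmer arrays. It belongs to the main processing, and an alternative can give a smaller difference. Alternatives were computed for single genes among the members only, so the bounds of other genes were not checked against them. With normexp background correction the Aurkb difference was 0.04.

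Of the other cycle genes, 39 of 45 mitosis genes were higher and none lower (median 1.35), 28 of 38 replication genes were higher and 3 lower (0.78), and 14 of 24 G1 genes were higher and 6 lower (0.37). Ccng2, an atypical cyclin of cell cycle exit (3.1, adjusted p = 1.0e-07), and Racgap1, a cytokinesis regulator (2.54, adjusted p = 3.5e-08), rose most. The E2F repressor E2f4 fell most (-3.37, adjusted p = 5.7e-07), followed by Cdkn1c, which was not above background in CDP and was at least 1.45-fold lower (adjusted p = 0.00056). Monocyte genes were all higher (7 of 7, median 3.92), whereas 10 of 11 erythroid and all 8 basophil genes were lower.

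**Figure D3:**
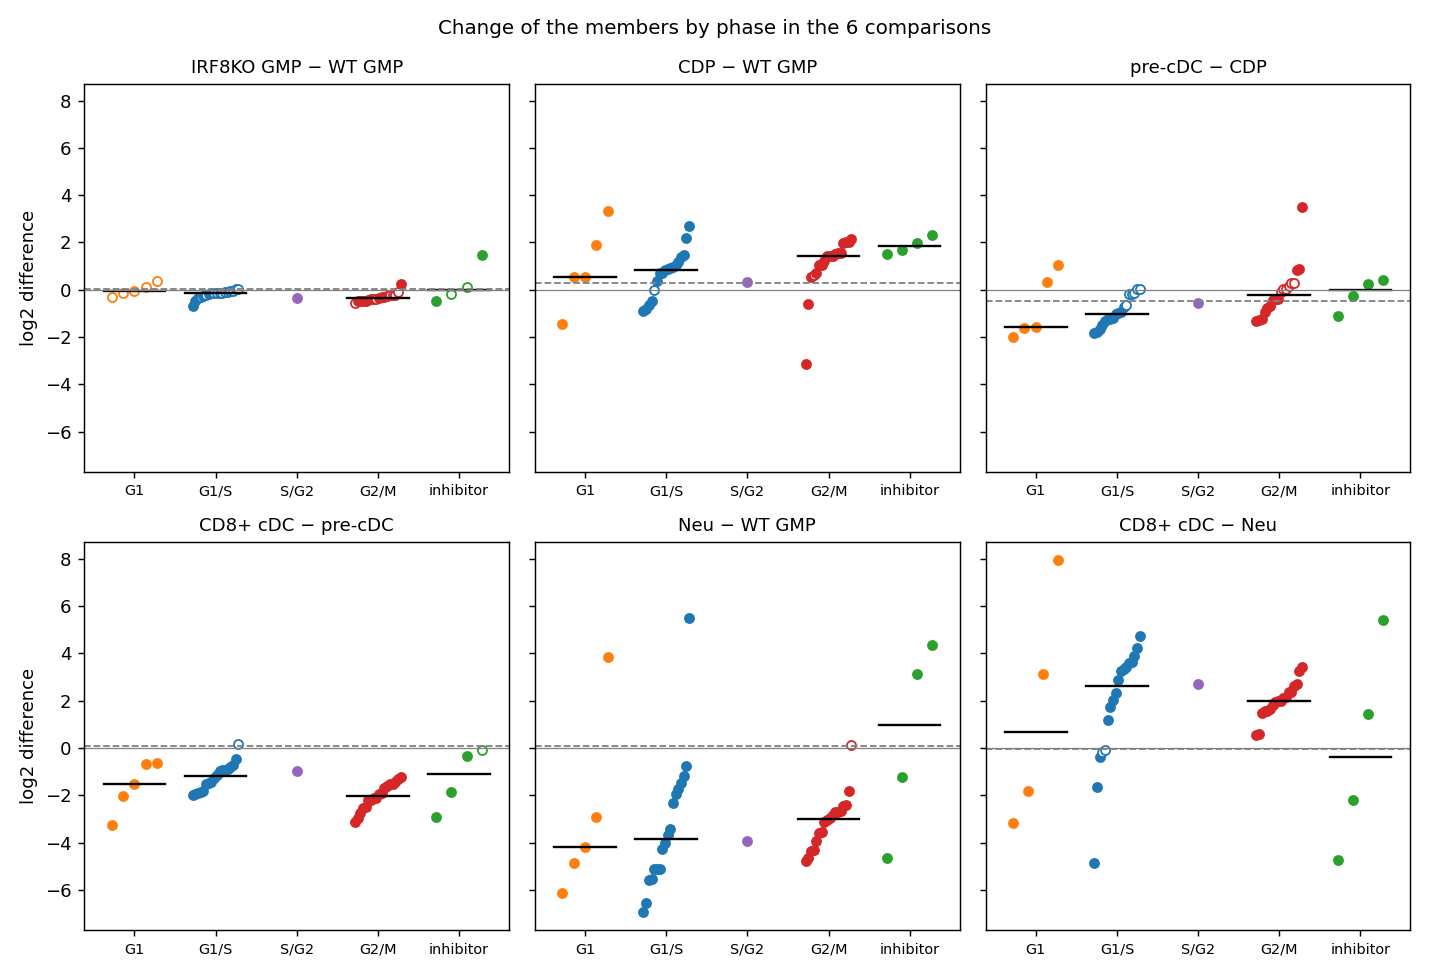
Log2 difference (vertical axis) of every tested member in the 6 comparisons, 1 panel each and the first-named group minus the second, grouped by the phase in which the gene acts, with the CDK inhibitors apart. Filled points passed an adjusted p of 0.05, black bars are phase medians and the dashed line is the median of all genes tested; the G2/M median stands at 1.42 in CDP minus WT GMP and at -2.01 in CD8+ cDC minus pre-cDC, and in pre-cDC minus CDP the G1/S median is -1.02 beside -0.23 for G2/M.

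The third comparison followed the dendritic lineage on to the pre-cDC, the last precursor in the marrow. Most replication genes were lower in pre-cDC than in CDP, as were most of all genes tested. Mitotic genes went both ways, and Ccnd1, Kif23, Cdk1 and Aurkb were higher. Of 46 members 27 were lower and 7 higher, that is 58.7% and 15.2%, against 58.8% and 25.3% of all 11481 genes tested (84.0% were called either way), and the median member change of -0.61 was near the -0.49 of all genes. The split by direction followed the scaling: 22 higher and 20 lower with reference gene scaling, 18 and 21 after quantile normalization, and 4 and 37 with array medians. The direction and the call held under every alternative for 19 lower and 4 higher members.

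Of the 18 tested G1/S members 12 were lower and none higher, with a median of -1.02, beside 58.8% lower and a median of -0.49 among all genes tested. Mcm6 was at 6.40 and 6.44 in pre-cDC, against 8.23 and 8.31 in CDP (-1.85 ± 0.07 SE, adjusted p = 2.2e-07). Cdt1, the licensing factor that geminin blocks, was at 4.44 and 4.43, against 6.20 and 6.20 in CDP (-1.77 ± 0.05 SE, adjusted p = 1.1e-07), and Mcm4 was at 4.64 and 4.47, against 6.22 and 6.25 (-1.68 ± 0.07 SE, adjusted p = 3.4e-07). The 2 pre-cDC arrays lay below both CDP arrays in all 3 genes, and Mcm7 (-1.48 ± 0.05 SE, adjusted p = 1.5e-07) and Mcm3 (-1.04 ± 0.07 SE, adjusted p = 2.2e-06) did likewise. Rrm2 was at 4.80 and 4.24 in pre-cDC, against 5.86 and 5.84 in CDP (-1.32 ± 0.15 SE, adjusted p = 7.1e-05); its pre-cDC arrays differed by more than those of any other member. Pcna (-1.26 ± 0.06 SE, adjusted p = 6.2e-07), Rrm1 (-1.21 ± 0.06 SE, adjusted p = 6.2e-07), E2f1 (-1.22 ± 0.04 SE, adjusted p = 2.0e-07), E2f8 (-0.95 ± 0.09 SE, adjusted p = 1.7e-05) and Ccne1 (-1.0 ± 0.06 SE, adjusted p = 1.1e-06) were lower under every alternative, although the second Ccne1 probe gave 0.05. E2f2, Cdk2, Mcm2, Cdc45, Tyms and Cdc6 did not pass, and the second, dimmer Cdc6 probe gave -1.56, against -0.66 on the probe used.

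The D cyclin genes parted in this step. Ccnd1 was at 5.50 and 5.47 in pre-cDC, against 4.41 and 4.45 in CDP (1.06 ± 0.23 SE, adjusted p = 0.0030), and Ccnd2 was at 2.84 and 2.94, against 4.90 and 4.89 (-2.0 ± 0.08 SE, adjusted p = 2.7e-07), the largest fall of any member. Ccnd3 was slightly higher on its brightest probe (0.31 ± 0.10 SE, adjusted p = 0.021), and its second probe, above background on all 12 arrays, gave 1.25. The call was lost without either CDP array or without pre-cDC replicate 2, and the difference turned lower with array medians. Their kinases were both lower: Cdk4 was at 5.07 and 5.10, against 6.65 and 6.76 in CDP (-1.62 ± 0.06 SE, adjusted p = 2.5e-07), and Cdk6 was at -1.48 and -1.77, against -0.02 and -0.09 (-1.57 ± 0.18 SE, adjusted p = 6.3e-05). Of the inhibitors, Cdkn1a was lower under every alternative, at 0.61 and 0.69, against 1.84 and 1.68 in CDP (-1.11 ± 0.09 SE, adjusted p = 7.4e-06). Cdkn2c (0.42 ± 0.08 SE, adjusted p = 0.0012), Cdkn2d (0.23 ± 0.06 SE, adjusted p = 0.0069) and Cdkn1b (-0.26 ± 0.06 SE, adjusted p = 0.0049) changed by less and each turned with at least 1 scaling.

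Among the 18 G2/M members 9 were lower, 3 higher and 6 did not pass (median -0.23). Ccnb2 was at 5.24 and 5.22 in pre-cDC, against 6.51 and 6.56 in CDP (-1.30 ± 0.06 SE, adjusted p = 3.7e-07), Ccnb1 differed by -1.28 ± 0.06 (SE, adjusted p = 3.8e-07), Cenpe by -1.24 ± 0.09 (SE, adjusted p = 5.2e-06) and Bub1 by -0.94 ± 0.07 (SE, adjusted p = 7.6e-06), all under every alternative. Ccna2 (-0.41 ± 0.05 SE, adjusted p = 0.00016), Aurka (-0.41 ± 0.07 SE, adjusted p = 0.00075) and Mki67 (-0.37 ± 0.07 SE, adjusted p = 0.00092) were lower here but higher with reference gene scaling and after quantile normalization. Kif23 was at 3.55 and 3.54, against 2.65 and 2.70 in CDP (0.87 ± 0.05 SE, adjusted p = 2.0e-06), and Cdk1 was at 2.59 and 2.84, against 1.86 and 1.91 (0.83 ± 0.08 SE, adjusted p = 2.4e-05). The second Cdk1 probe went the same way, and the dimmest, above background on 5 of the 12 arrays, gave -0.72. Aurkb was at -1.36 and -1.46 in pre-cDC, against -4.81 and -5.02 in CDP where it was not above background, at least 3.37-fold higher (adjusted p = 6.1e-07), although the log2 difference was 0.52 with normexp background correction, below that bound. Plk1, Bub1b, Top2a, Cenpa, Kif11 and Cdc25c did not pass.

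Beside the 58.8% of all genes tested that were lower in pre-cDC, the other cycle lists gave these counts: 34 of 38 replication genes were lower and 1 higher (median -1.20), 30 of 45 mitosis genes lower and 2 higher (-0.60), and 18 of 23 G1 genes lower and 4 higher (-0.82). E2f3, an activating E2F (-2.36, adjusted p = 1.7e-07), and Gins1, a subunit of the replicative helicase (-2.12, adjusted p = 3.7e-07), fell most, while E2f4 (3.06, adjusted p = 8.2e-07) and the antiproliferative gene Tob1 (1.82, adjusted p = 1.0e-05) rose most. Of the reference genes 8 of 10 were lower and 1 higher (-0.39). Mature neutrophil genes were higher in pre-cDC (6 of 7, summed level 5.57 to 5.63, against 0.35 to 0.38 in CDP), as were basophil genes (5 of 6); their part in the result was not tested.

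The fourth comparison set CD8+ cDC of the spleen against their marrow precursors, which also changes tissue and slide. Nearly every member was lower in CD8+ cDC: 44 of 46 (95.7%), with none higher, against 34.7% lower and 40.2% higher among all 12597 genes tested (74.9% called either way). The median change of members was -1.54, against 0.08 for all genes. It was larger in G2/M (all 18 lower, median -2.01) than in G1/S (17 of 18 lower, -1.20), with no test of that difference. Of the 44 calls 40 held under every alternative.

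The mitotic genes that fell most were Cdc25c, at -2.27 and -2.24 in CD8+ cDC, against 0.86 and 0.90 in pre-cDC (-3.13 ± 0.34 SE, adjusted p = 6.4e-05), and Kif11, the motor that separates spindle poles, at -0.34 and 0.00, against 3.03 and 2.55 in pre-cDC (-2.96 ± 0.17 SE, adjusted p = 1.5e-06). Top2a was at 1.66 and 1.87, against 4.56 and 4.51 in pre-cDC (-2.77 ± 0.09 SE, adjusted p = 8.8e-08). In all 3 the groups were far apart beside the spread of the arrays, which was widest for Kif11. Ccna2 was at 2.38 and 2.48, against 5.01 and 4.95 in pre-cDC (-2.55 ± 0.05 SE, adjusted p = 1.1e-08), Plk1 differed by -2.48 ± 0.07 (SE, adjusted p = 4.5e-08), Cenpa by -2.20 ± 0.06 (SE, adjusted p = 2.5e-08) and Aurka by -2.20 ± 0.07 (SE, adjusted p = 7.0e-08). The smallest fall of a mitotic member was that of Ccnb2 (-1.23 ± 0.06 SE, adjusted p = 4.8e-07). Bub1 differed by -1.54 ± 0.07 (SE, adjusted p = 6.3e-07), but the difference was 0.35 on the values of the authors' deposited table.

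All 5 D cyclin and kinase genes were lower. Ccnd2 was at -0.39 and -0.30 in CD8+ cDC, against 2.84 and 2.94 in pre-cDC (-3.24 ± 0.08 SE, adjusted p = 2.2e-08), the largest fall of any member, and Ccnd3 was at 5.71 and 5.99, against 7.28 and 7.45 (-1.51 ± 0.10 SE, adjusted p = 4.1e-06). The second Ccnd3 probe differed by -2.96. Cdk6 was above background on 1 of 2 CD8+ cDC arrays, at -3.70 and -3.59, against -1.48 and -1.77 in pre-cDC (-2.02 ± 0.18 SE, adjusted p = 1.8e-05), and Cdk4 differed by -0.67 ± 0.06 (SE, adjusted p = 3.0e-05). Ccnd1 was at 4.87 and 4.84, against 5.50 and 5.47 in pre-cDC (-0.63 ± 0.23 SE, adjusted p = 0.037), a smaller fall than those of Ccnd2 and Ccnd3, and that call was lost whichever of the 4 arrays was left out. The SE of Ccnd1 also holds the gap between the Neu arrays, 1 of them not above background. Among the inhibitors Cdkn2d was at 2.43 and 2.29, against 5.27 and 5.31 in pre-cDC (-2.93 ± 0.06 SE, adjusted p = 9.7e-09), and Cdkn2c was at 0.97 and 0.84, against 2.75 and 2.75 (-1.85 ± 0.08 SE, adjusted p = 2.7e-07). Cdkn1b fell slightly (-0.35 ± 0.06 SE, adjusted p = 0.0014) and Cdkn1a did not pass (-0.09 ± 0.09 SE, adjusted p = 0.40).

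In the G1/S group E2f8 differed by -2.0 ± 0.09 (SE, adjusted p = 3.5e-07), Cdk2 by -1.95 ± 0.12 (SE, adjusted p = 2.1e-06), E2f2 by -1.92 ± 0.06 (SE, adjusted p = 7.6e-08), and Ccne1 by -1.47 ± 0.06 (SE, adjusted p = 1.7e-07). Mcm2 was at 1.81 and 1.88 in CD8+ cDC, against 3.75 and 3.66 in pre-cDC (-1.86 ± 0.09 SE, adjusted p = 5.8e-07), and Mcm5 was at 3.93 and 4.04, against 5.76 and 5.83 (-1.81 ± 0.09 SE, adjusted p = 7.0e-07). The MCM genes were well above background in these cells, as on all 12 arrays of the larger design. Mcm6 was at 5.46 and 5.64, against 6.40 and 6.44 in pre-cDC (-0.87 ± 0.07 SE, adjusted p = 1.1e-05). Rrm1 (-0.98 ± 0.06 SE, adjusted p = 2.2e-06), Rrm2 (-0.94 ± 0.15 SE, adjusted p = 0.00067) and Gmnn (-0.99 ± 0.10 SE, adjusted p = 3.7e-05) were lower, Pcna had the smallest fall of the G1/S members that passed (-0.46 ± 0.06 SE, adjusted p = 0.00024), and Tyms did not pass (0.17 ± 0.09 SE, adjusted p = 0.15).

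Of the other cycle genes 44 of 45 mitosis genes were lower and 1 higher (median -1.90), 32 of 38 replication genes lower and 3 higher (-1.07), and 11 of 25 G1 genes lower and 9 higher (-0.03). Ttk, the spindle checkpoint kinase, and Cenpf, a kinetochore protein, were not above background in CD8+ cDC and were at least 9.76-fold lower (adjusted p = 0.00019) and at least 4.9-fold lower (adjusted p = 0.00026). Cdkn2b and Cdkn1c, both CDK inhibitors, were not above background in pre-cDC and were at least 4.35-fold higher (adjusted p = 0.00012) and at least 1.71-fold higher (adjusted p = 0.00036). The bounds of Ttk, Cenpf, Cdkn2b and Cdkn1c belong to the main processing and were not checked under the alternatives. The erythroid and megakaryocyte genes summed to 8.36 to 8.43 on CD8+ cDC arrays, against 4.35 to 4.41 on pre-cDC arrays, with 3 of 11 higher and 8 lower. Genes of other marrow lineages were lower in CD8+ cDC together with the cycle genes: neutrophil precursor genes in 7 of 7 (median -6.24; summed level 2.05 to 2.13, against 7.08 to 7.09 in pre-cDC), monocyte genes in 7 of 7 (-4.11), basophil and mast cell genes in 6 of 6 (-5.20) and mature neutrophil genes in 6 of 6 (-1.86). The part of these lists in the result was not tested.

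The fifth comparison set neutrophils, post-mitotic cells of the granulocyte branch, against the WT GMP from which that branch starts. Replication and mitosis genes were lower by up to 6.95 log2 units in Neu, while a small set of G1 regulators went the other way: Ccnd3, Cdkn1b, Cdkn2d and E2f2 were higher. Of 46 members 41 were lower and 4 higher, that is 89.1% and 8.7%, against 45.1% and 47.1% of all 12520 genes tested (92.2% called either way). The median change of members was -3.29, against 0.07 for all genes, and 43 of the 45 calls held under every alternative. Neu arrays had 39 members well above background on both arrays, against 46 on WT GMP arrays.

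Among the D cyclins, Ccnd3 was at 8.96 and 9.05 in Neu, against 5.22 and 5.12 in WT GMP (3.84 ± 0.10 SE, adjusted p = 4.7e-09), and its second probe differed by 3.05. Ccnd1 was at -2.68 and -3.55, the second not above background, against 1.04 and 1.12 in WT GMP (-4.20 ± 0.23 SE, adjusted p = 4.0e-07), and Ccnd2 was at 1.57 and 1.35, against 4.35 and 4.39 (-2.91 ± 0.08 SE, adjusted p = 5.7e-09). The kinases they activate were both lower. Cdk4 was at 1.23 and 1.31, against 6.18 and 6.12 in WT GMP (-4.88 ± 0.06 SE, adjusted p = 2.0e-10), and Cdk6, not above background in Neu, was at -5.01 and -4.48, against 1.28 and 1.52, at least 21-fold lower (adjusted p = 7.3e-09). The smallest log2 difference of Cdk6 over the alternatives was -2.78, short of that bound.

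The inhibitors split 2 against 2. Cdkn2d was at 7.13 and 7.11 in Neu, against 2.79 and 2.70 in WT GMP (4.37 ± 0.06 SE, adjusted p = 2.3e-10), and Cdkn1b was at 5.16 and 5.22, against 2.07 and 2.06 (3.12 ± 0.06 SE, adjusted p = 1.2e-09). Cdkn2c, the other INK4 gene among the members, was lower, at -0.66 and -0.45, against 0.68 and 0.64 in WT GMP (-1.21 ± 0.08 SE, adjusted p = 9.8e-07). Cdkn1a, the other CIP/KIP gene among the members, was not above background in Neu, at -4.96 and -4.77, against -0.17 and -0.28, at least 6.8-fold lower (adjusted p = 8.0e-10). Its smallest log2 difference over the alternatives was -1.47, short of that bound. Among the members, each inhibitor family held 1 gene that was higher and 1 that was lower in Neu.

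The E2F genes also parted. E2f2 was at 7.31 and 7.34 in Neu, against 1.83 and 1.80 in WT GMP (5.51 ± 0.06 SE, adjusted p = 1.3e-10), the largest rise of any member. E2f1 was at 1.08 and 1.12, against 3.04 and 3.02 (-1.93 ± 0.04 SE, adjusted p = 2.3e-09), and E2f8 was at 1.70 and 1.60, against 3.38 and 3.39 (-1.73 ± 0.09 SE, adjusted p = 2.1e-07). Of the genes of S phase entry, Ccne1 differed by -2.33 ± 0.06 (SE, adjusted p = 2.7e-09) and Cdk2 by -1.17 ± 0.12 (SE, adjusted p = 2.1e-05).

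Licensing and helicase genes held the largest falls. Mcm2 was at -2.54 and -2.26 in Neu, against 4.56 and 4.53 in WT GMP (-6.95 ± 0.09 SE, adjusted p = 1.8e-10), Mcm3 was at -0.47 and -0.37, against 6.14 and 6.11 (-6.55 ± 0.07 SE, adjusted p = 9.4e-11), and Mcm5 was at -0.05 and 0.20, against 5.69 and 5.61 (-5.57 ± 0.09 SE, adjusted p = 4.0e-10). All 6 MCM genes were lower, Mcm4 the least (-3.43 ± 0.07 SE, adjusted p = 1.3e-09). Cdc6, which was not above background in Neu, was at least 18-fold lower (adjusted p = 2.2e-07), although its smallest log2 difference over the alternatives was -2.62, short of that bound. Cdt1 differed by -4.00 ± 0.05 (SE, adjusted p = 1.4e-10). Cdc45 fell far less, at -0.82 and -0.65, against 0.73 and 0.77 in WT GMP (-1.48 ± 0.07 SE, adjusted p = 9.8e-08). Rrm1 differed by -5.11 ± 0.06 (SE, adjusted p = 1.4e-10), Pcna by -4.28 ± 0.06 (SE, adjusted p = 2.8e-10), Rrm2 by -3.68 ± 0.15 (SE, adjusted p = 6.4e-08), Gmnn by -3.93 ± 0.10 (SE, adjusted p = 3.1e-09) and Tyms, least, by -0.76 ± 0.09 (SE, adjusted p = 8.4e-05).

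Of 18 G2/M members 17 were lower in Neu (median -3.01), under every alternative except for Aurkb, which differed by -0.14 with normexp background correction and then did not pass. Bub1b, a kinase-like protein of the spindle checkpoint, was at -2.39 and -2.47, against 2.34 and 2.34 in WT GMP (-4.77 ± 0.07 SE, adjusted p = 2.8e-10), and Top2a was at -0.95 and -0.74, against 3.83 and 3.76 (-4.65 ± 0.09 SE, adjusted p = 1.0e-09). Cdk1 was at -1.45 and -1.5, against 2.45 and 2.49 (-3.95 ± 0.08 SE, adjusted p = 1.1e-09), and its cyclins differed by -3.55 for Ccna2, -2.95 for Ccnb1 and -2.46 for Ccnb2. The second Cdk1 probe went the same way, and the dimmest, on neither WT GMP array above background, gave 1.24. Bub1, Cdc25c and Aurkb were not above background in Neu and were at least 18.8-fold, at least 7.87-fold and at least 2.31-fold lower. Over the alternatives the smallest log2 difference was -2.49 for Bub1 and -1.53 for Cdc25c, both short of their bounds. Kif11 differed by -3.58 ± 0.17 (SE, adjusted p = 1.4e-07), Mki67 by -3.15 ± 0.07 (SE, adjusted p = 1.3e-09) and Cenpa by -1.80 ± 0.06 (SE, adjusted p = 1.2e-08). Kif23 was the exception, at 1.42 and 1.34, against 1.28 and 1.23 in WT GMP (0.13 ± 0.05 SE, adjusted p = 0.055), and turned lower with array medians (-0.43).

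Of the other cycle genes 42 of 44 mitosis genes (median -3.40) and 37 of 38 replication genes (-3.79) were lower, and 14 of 24 G1 genes were lower and 8 higher (-1.22). Dut, the dUTPase, and Pola1, the catalytic subunit of the priming polymerase, were not above background in Neu and were at least 142-fold lower (adjusted p = 1.1e-10) and at least 66.1-fold lower (adjusted p = 7.1e-10). These bounds hold for the main processing and were not checked under the alternatives, which undercut those of members such as Bub1 and Cdc6. Tob1 (5.97, adjusted p = 3.6e-09) and Btg2 (4.96, adjusted p = 4.8e-10), both of the antiproliferative BTG/TOB family, rose most. The reference genes went both ways (5 of 10 higher, 4 lower, median 0.45).

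**Figure D4:**
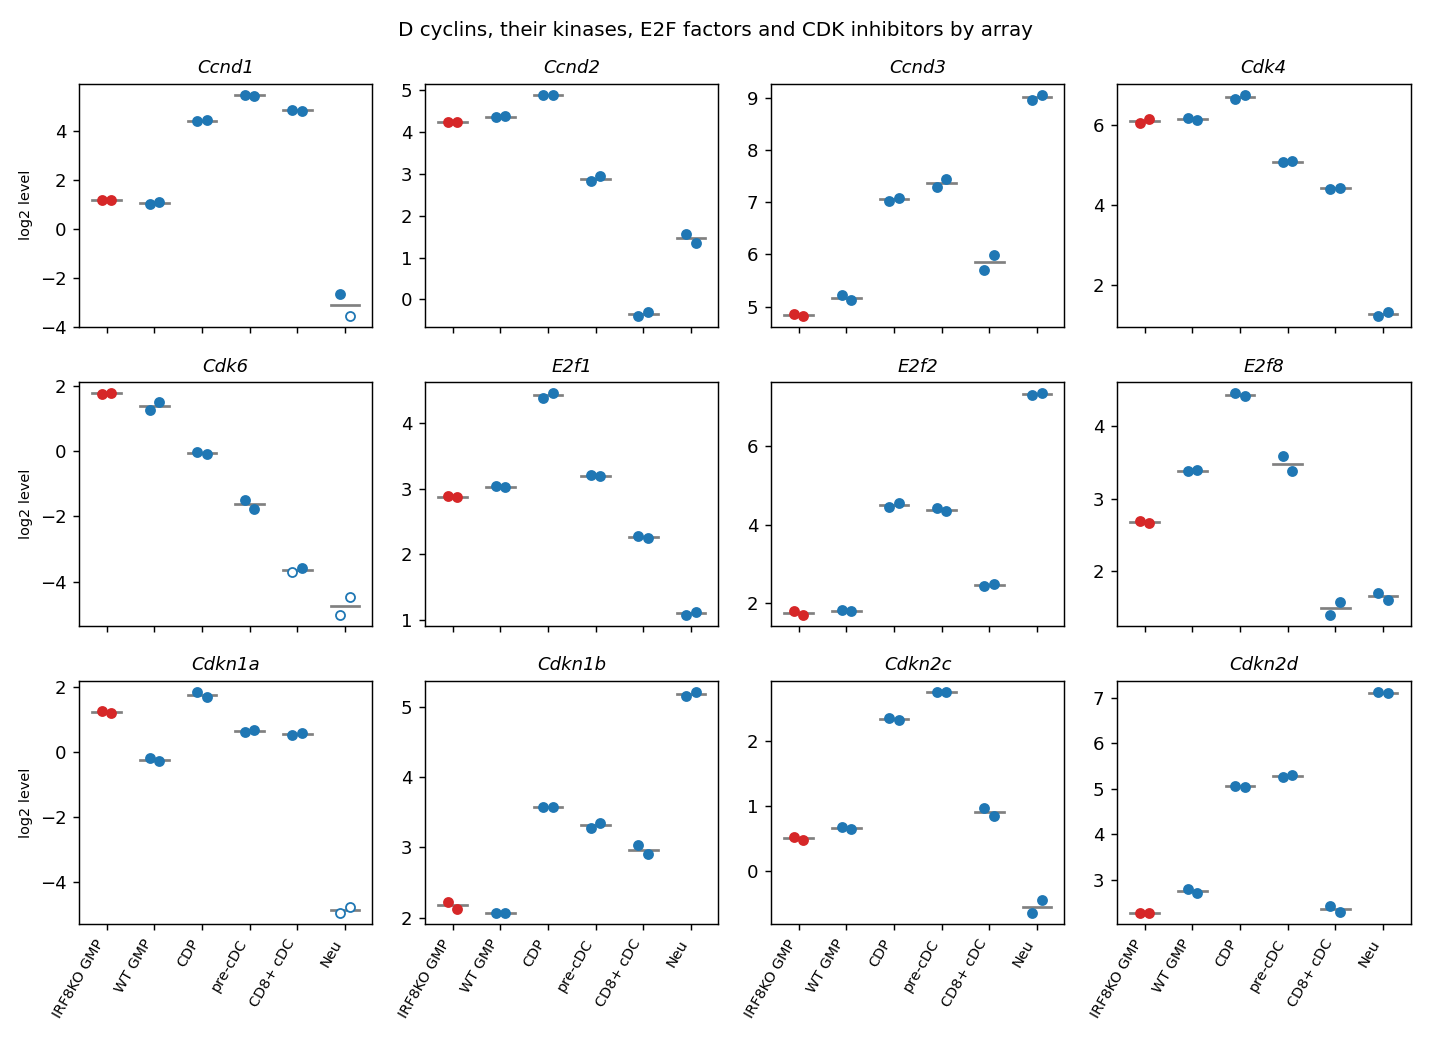
Log2 level (vertical axes, with a scale of its own in each panel) of the D cyclins, their kinases, the E2F factors and the CDK inhibitors on each array, by group; open circles were not well above background and bars are group means of 2 arrays. IRF8KO GMP is in red; Ccnd3, E2f2, Cdkn1b and Cdkn2d are highest in Neu, at 9.05, 7.34, 5.22 and 7.13 on the brighter array, and Ccnd1 is highest in pre-cDC at 5.50.

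The sixth comparison set the 2 mature cell types of the same slide, CD8+ cDC and Neu, against each other. CD8+ cDC held higher levels of most members, and the G1 regulators again differed by member. Of 45 members tested 36 were higher and 7 lower in CD8+ cDC, that is 80.0% and 15.6%, against 42.8% and 43.4% of all 12817 genes tested (86.2% called either way), with a median of 2.04, against -0.06 for all genes. Cdk6 was not tested, since it was above background on 1 of these 4 arrays. On the 4 arrays of this slide alone the split was the same, 36 higher and 7 lower, and 40 of the 43 calls held under every alternative.

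Ccnd1 was at 4.87 and 4.84 in CD8+ cDC, against -2.68 and -3.55 in Neu (7.97 ± 0.23 SE, adjusted p = 1.0e-08). Since 1 of the 2 Neu arrays was not above background for Ccnd1, the size of this difference is uncertain: it ran from 6.07 with normexp background correction to 8.43 after quantile normalization. Ccnd3 was at 5.71 and 5.99, against 8.96 and 9.05 in Neu (-3.16 ± 0.10 SE, adjusted p = 1.9e-08), and Ccnd2 was at -0.39 and -0.30, against 1.57 and 1.35 (-1.81 ± 0.08 SE, adjusted p = 1.3e-07). Ccnd1 was the D cyclin higher in CD8+ cDC, and Ccnd2 and Ccnd3 were higher in Neu. Cdk4 was at 4.41 and 4.43, against 1.23 and 1.31 in Neu (3.14 ± 0.06 SE, adjusted p = 1.5e-09).

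The inhibitors again formed 2 pairs. Cdkn1a was at 0.53 and 0.60 in CD8+ cDC, against -4.96 and -4.77 in Neu, at least 11.8-fold higher (adjusted p = 5.2e-10), although its smallest log2 difference over the alternatives was 2.11, short of that bound. Cdkn2c was also higher, at 0.97 and 0.84, against -0.66 and -0.45 (1.46 ± 0.08 SE, adjusted p = 3.7e-07). Cdkn2d was lower, at 2.43 and 2.29, against 7.13 and 7.11 in Neu (-4.76 ± 0.06 SE, adjusted p = 1.9e-10), as was Cdkn1b, at 3.03 and 2.90, against 5.16 and 5.22 (-2.22 ± 0.06 SE, adjusted p = 9.4e-09). E2f2 was at 2.44 and 2.49, against 7.31 and 7.34 in Neu (-4.86 ± 0.06 SE, adjusted p = 2.0e-10), E2f1 was higher (1.16 ± 0.04 SE, adjusted p = 5.5e-08) and E2f8 did not pass (-0.17 ± 0.09 SE, adjusted p = 0.11). Ccne1 was higher (2.04 ± 0.06 SE, adjusted p = 7.3e-09), whereas its kinase gene Cdk2 was lower (-1.66 ± 0.12 SE, adjusted p = 2.6e-06).

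Of 9 licensing and helicase genes 8 were higher in CD8+ cDC, led by Mcm3, at 4.25 and 4.38, against -0.47 and -0.37 in Neu (4.74 ± 0.07 SE, adjusted p = 2.9e-10), and Mcm2, at 1.81 and 1.88, against -2.54 and -2.26 (4.24 ± 0.09 SE, adjusted p = 1.8e-09). Cdc45 was lower (-0.38 ± 0.07 SE, adjusted p = 0.00067). Rrm1 differed by 3.63 ± 0.06 (SE, adjusted p = 5.7e-10), Pcna by 3.41 ± 0.06 (SE, adjusted p = 9.2e-10) and Gmnn by 2.72 ± 0.10 (SE, adjusted p = 3.4e-08), and Tyms did not pass (-0.09 ± 0.09 SE, adjusted p = 0.39). All 18 G2/M members were higher (median 1.99). Bub1b was at 1.05 and 0.96, against -2.39 and -2.47 in Neu (3.44 ± 0.07 SE, adjusted p = 1.5e-09), Cdk1 was at 1.22 and 1.19, against -1.45 and -1.5 (2.69 ± 0.08 SE, adjusted p = 1.1e-08), and Top2a differed by 2.62 ± 0.09 (SE, adjusted p = 3.1e-08). The second Cdk1 probe went the same way, and the dimmest gave -0.06. The smallest differences were those of Kif23 (0.57 ± 0.05 SE, adjusted p = 1.7e-05) and Cenpa (0.57 ± 0.06 SE, adjusted p = 2.2e-05). Bub1, Cdc6, Cdc25c and Aurkb were not above background in Neu and were at least 9.05-fold, at least 4.76-fold, at least 1.67-fold and at least 1.22-fold higher, although Aurkb turned with normexp background correction (-0.01). Over the alternatives the smallest log2 difference was 1.52 for Bub1, 1.05 for Cdc6 and 0.14 for Cdc25c, all short of their bounds. The Cdc25c call was not kept under every alternative (highest limma adjusted p = 0.11).

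Of the other cycle genes 39 of 42 mitosis genes (median 2.29) and 34 of 38 replication genes (2.34) were higher, and 12 of 25 G1 genes were higher and 10 lower (0.33). Dut and Hells, a chromatin remodeller, were not above background in Neu and were at least 33.3-fold higher (adjusted p = 3.7e-10) and at least 10.3-fold higher (adjusted p = 3.9e-08). Both bounds belong to the main processing and were not checked under the alternatives. Tob1 (-3.24, adjusted p = 1.7e-07) and Tfdp1, the dimer partner of E2F factors (-2.46, adjusted p = 7.5e-07), were lower in CD8+ cDC by the most. Erythroid and megakaryocyte genes were higher in CD8+ cDC in 6 of 9 and lower in 3 (summed level 8.36 to 8.43, against 4.01 to 4.05 in Neu), and neutrophil precursor genes were lower in 8 of 8 (2.05 to 2.13, against 8.71 to 8.75 in Neu). Their part in the result was not tested. The comparisons with WT GMP share its 2 arrays, and those with CDP, pre-cDC, Neu or CD8+ cDC share theirs, so their changes are not independent of each other.

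CD4+ cDC, measured on the smaller design, can be set beside CD8+ cDC only on a percentile taken over the 39429 probes that both designs hold, on different slides and with no test. On that scale the members were centred near each other: 23 were higher and 24 lower in CD4+ cDC, with a median difference of -0.04, against -0.07 over 11822 genes and -0.56 over the reference genes. The 11822 genes were above background on every array of both groups. The 47 members were not filtered in this way and include Ccne2, so the sets are not fully alike. Ccnd2 averaged 2.09 in CD4+ cDC and -1.28 in CD8+ cDC, E2f2 3.96 and 1.52, Ccnd1 5.57 and 3.92, and Cdk2 -0.05 and -1.97. These 4 G1 regulators had the largest positive differences of the members. Aurkb averaged -8.15 in CD4+ cDC, where it was not above background, and -3.65 in CD8+ cDC. Cdk1 averaged -1.78 and 0.27, Cdc6 -3.19 and -1.68, Kif23 -0.15 and 1.01, and Tyms -3.40 and -2.36. Mki67 averaged 4.01 in CD4+ cDC and 4.06 in CD8+ cDC, and Pcna 4.08 and 4.07.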

How the data were processed

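RNA from 14 samples was hybridised to single-colour Agilent arrays, 2 in each of 7 groups. Per the file headers, spots were read with Agilent Feature Extraction 10.7.3.1; the deposited intensity of a spot is background-subtracted and detrended within its array and not normalized between arrays. The authors' deposited table holds quantile-normalized intensities, judged from its values, and served as an alternative.

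From these, the log2 of the deposited processed intensity minus that of the array's 75th percentile was computed. Control spots and outlier spots were left out and spots of a probe averaged; of 55681 probes, 26762 had 1 gene symbol, giving 20284 genes, each read from its brightest probe (9 members had several). limma 3.58.1 in R 4.3.3 (lmFit, contrasts, eBayes, two-sided) was fitted to the 12 arrays of the larger design, over 13574 genes that both arrays of some group showed well above background. p-values were adjusted (Benjamini-Hochberg) over genes above background on both arrays of a compared group, with a threshold of 0.05. No spot was saturated. Of each class, the members that changed most, those against their class and all CDK inhibitors are given in full, and of the other cycle lists the 2 largest changes each way. The members and lists were chosen with earlier results of these data known. Alternatives covered the scaling, background correction (normexp, offset 50, on the median spot signal, the only raw spot signal in the tables used here, in place of the planned mean signal), dim-probe filter, several probes of a gene, the authors' values, the replicate block, the slide, and each array left out. Scaling on probes of both designs and all genes in the variance estimate were added after the data were seen. Promoter sequences are those of RefSeq on GRCm38.p6, whereas the array headers name an older mouse build, and no array coordinates were used.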

Additional observations from a re-analysis of the deposited data

How the results depend on the processing

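In the comparison of IRF8KO GMP with WT GMP the count of 21 members called became 2 when each array was scaled to its median and 13 without any 1 array (lowest 13, highest 13), and it lay between 16 and 27 under the other alternatives. Scaling on array medians moved the median of all genes in that comparison to 0.11, against 0.03. Bub1, Cdk1, E2f1, Gmnn, Mcm7, Top2a and Tyms lost their calls whichever array was left out, Rrm1 without either of WT GMP replicate 1 and IRF8KO GMP replicate 2, and Kif23 without either of the other two. With a single array left in a group, that array is assumed to vary like the other groups. In the other comparisons the counts stayed within 1.5 times the counts given: 36 to 44 where 44 were given for CDP, 33 to 42 where 34 were given for pre-cDC, 42 to 45 where 44 were given for CD8+ cDC against pre-cDC, 43 to 46 where 45 were given for Neu and 42 to 45 where 43 were given for CD8+ cDC against Neu. Replicate numbers did not pair the arrays (15 pairs, correlations of deviations from -0.21 to 0.08). With the replicate number as a block the IRF8KO comparison called 18 members, losing E2f1 (limma adjusted p = 0.074), Mcm7 (0.060) and Tyms (0.062), and the other counts were 44, 34, 44, 45 and 43, as without it.

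These log2 differences changed sign, and the cause was not tested. IRF8KO GMP minus WT GMP gave Cdk1 0.706 with the mean of the probes of a gene, of which the dimmest was not above background in WT GMP. CDP minus WT GMP gave Ccnd2 -0.0642, Cdk4 -0.217, Mcm3 -0.387, Mcm4 -0.0291 and Mcm6 -0.0310 after quantile normalization. CDP minus WT GMP gave Gmnn -0.159 and Mcm3 -0.109 with the percentile over commonly detected probes. CDP minus WT GMP gave Bub1b -0.343, Ccnd2 -0.372, Cdk4 -0.341, Gmnn -0.560, Mcm3 -0.510, Mcm4 -0.170, Mcm5 -0.0270, Pcna -0.0556, Rrm1 -0.188 and Top2a -0.170 with reference gene scaling. CDP minus WT GMP gave Aurkb 0.0372, Gmnn -0.00501, Mcm3 -0.168 and Tyms 0.00711 with normexp background correction. CDP minus WT GMP gave Ccnd2 -0.0662, Cdk4 -0.208, Mcm3 -0.372, Mcm4 -0.0322 and Mcm6 -0.0301 on the authors' deposited values. pre-cDC minus CDP gave Aurka 0.173, Ccna2 0.159, Cdkn1b 0.193, Cenpa 0.484, E2f2 0.440, Mcm2 0.338 and Mki67 0.240 after quantile normalization. pre-cDC minus CDP gave Bub1b -0.477, Ccnd3 -0.203, Cdc45 -0.479, Cdk2 -0.481, Cdkn2c -0.0994, Cdkn2d -0.282 and Top2a -0.498 with array medians. pre-cDC minus CDP gave Aurka 0.0980, Ccna2 0.0943, Cdkn1b 0.245, Cenpa 0.430, E2f2 0.389, Mcm2 0.327, Mki67 0.136 and Tyms 0.311 with the percentile over commonly detected probes. pre-cDC minus CDP gave the median member 0.00755, Aurka 0.205, Ccna2 0.202, Cdkn1b 0.352, Cenpa 0.537, E2f2 0.497, Gmnn 0.0549, Mcm2 0.434, Mki67 0.243 and Tyms 0.418 with reference gene scaling. pre-cDC minus CDP gave Aurka 0.207, Ccna2 0.191, Cdkn1b 0.235, Cenpa 0.501, E2f2 0.458, Mcm2 0.368 and Mki67 0.258 on the authors' deposited values. CD8+ cDC minus pre-cDC gave Bub1 0.349 on the authors' deposited values. Neu minus WT GMP gave Kif23 -0.425 with array medians. Neu minus WT GMP gave Kif23 -0.252 with the percentile over commonly detected probes. CD8+ cDC minus Neu gave Tyms 0.246 with the percentile over commonly detected probes. CD8+ cDC minus Neu gave Aurkb -0.0146 with normexp background correction.

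The share of higher calls among all called genes was 59.3% in IRF8KO GMP against WT GMP (50.8% to 65.5% over scalings), 65.5% in CDP against WT GMP (21.6% with reference genes) and 30.1% in pre-cDC against CDP (56.7% with reference genes). Dim probes limit the values of Aurkb, Cdc6, Cdc25c, Bub1, Cdk6 and Cdkn1a in Neu or CDP, and 2 arrays per group limit the precision of all of them.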
